A study of Mus musculus with 6 samples.

Results

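The miR-148 and miR-152 family of the mouse consists of 3 hairpins, Mir148a, Mir148b and Mir152, and each gives a mature miRNA from either arm. The members were all rows of the deposited small RNA count table whose name begins with miR-148a, miR-148b or miR-152, which gave 6 of the 1364 miRNAs listed. The family was selected on the measured rise of miR-148a-3p in the morphine group, so the comparison of morphine with saline is given for the members as a description, without p-values. The libraries were made from the nucleus accumbens (NAc), a reward region of the ventral striatum, of adult male C57BL/6N mice that were 7 to 8 weeks old. No transgene or mutation is named for either group. Mice in the morphine group received 10 mg/kg morphine by intraperitoneal injection, alternating with saline, over 6 days of conditioned place preference (CPP) training, and mice in the saline group received saline. In CPP, an animal learns to associate a compartment with a drug. Tissue was taken 0.5 h after the preference test of day 7, and there were 3 libraries per group. The series design counts 6 mice per group, or 2 per library, whereas the study elsewhere describes the libraries of a group as tissue of 3 mice. Each library is therefore a small pool or an individual, and p-values below measure only the spread between these libraries, which may be technical. In bulk tissue, more cells that contain a miRNA and more of it per cell cannot be told apart.

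A miRNA is cut from a hairpin precursor as a duplex of a 5p and a 3p strand. An Argonaute protein keeps the guide strand, and the passenger strand is mostly degraded. The guide finds target mRNAs through its seed, the bases from position 2 to 8, so miRNAs that share a seed share many predicted targets. In this family the 3p strands are the guides. They are known for acting on the mRNA of the DNA methyltransferase Dnmt1, and miR-148a-3p is also known in liver for acting on the mRNAs of the LDL receptor and of the cholesterol exporter Abca1.

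All 6 members matched a mature sequence in RefSeq (GRCm38.p6). They are printed because the comparison rests on which strands share a seed. The seed is in capitals, and every sequence runs 5′ to 3′.
miR-148a-3p: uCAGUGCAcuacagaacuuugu
miR-148b-3p: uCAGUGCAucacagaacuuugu
miR-152-3p: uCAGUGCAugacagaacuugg
miR-148a-5p: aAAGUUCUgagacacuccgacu
miR-148b-5p: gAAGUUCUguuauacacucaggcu
miR-152-5p: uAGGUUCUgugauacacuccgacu
The 3 guide strands carry the seed CAGUGCA, and no other mature miRNA of the 1679 in the RefSeq table has it. The 5p strands of miR-148a and miR-148b share the seed AAGUUCU, which again no other entry has, and miR-152-5p has its own seed, AGGUUCU. Counted from the 5′ end, miR-148a-3p and miR-148b-3p differ at 2 of 22 bases, C9U and U10C, just behind the seed. miR-148a-3p and miR-152-3p differ at 3 of the 21 bases they can be aligned over without gaps, C9U, U10G and U20G. The guide strands are thus near-identical, and a read with sequencing errors at these positions could be assigned to a sister. How the authors' counting treated mismatches is not given in the sources used here.

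The hairpins show how the strands are arranged, with the 5p strand and then the 3p strand in capitals.
Mir148a: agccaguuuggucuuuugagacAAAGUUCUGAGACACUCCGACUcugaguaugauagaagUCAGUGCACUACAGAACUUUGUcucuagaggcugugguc
Mir148b: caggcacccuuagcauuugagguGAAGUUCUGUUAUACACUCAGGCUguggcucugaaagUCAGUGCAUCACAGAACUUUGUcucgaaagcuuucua
Mir152: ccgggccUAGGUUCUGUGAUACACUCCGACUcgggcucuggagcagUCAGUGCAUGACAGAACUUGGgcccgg
The Mir148a hairpin spans bases 51269812 to 51269910 of chromosome 6 (GRCm38, minus strand), in no other gene of the GENCODE vM21 annotation, and its nearest protein-coding gene is Nfe2l3 at a distance of 162760 bases. Mir148b spans 103285125 to 103285221 of chromosome 15 (plus strand), inside Copz1 but outside its exons. Mir152 spans 96850393 to 96850465 of chromosome 11 (plus strand), likewise intronic in Copz2. Copz1 and Copz2 encode the alternative zeta subunits of the COPI vesicle coat. The mature miR-148a-3p occupies 51269829 to 51269850 and miR-148a-5p 51269867 to 51269888. Within the hairpins 16, 13 and 15 bases separate the strands of miR-148a, miR-148b and miR-152.

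The libraries held between 4183333 and 9842050 counts, so that 3 counts correspond to between 0.305 and 0.717 counts per 1e6 counts of the library (CPM). This limit covers counting error only, because reads copied by PCR were not told apart by molecular identifiers. The levels below are CPM after scaling with the TMM method of edgeR, unless a share of the library is named. Saline replicate 2 stood apart from the other saline libraries. Its Spearman correlation across the 899 miRNAs that reached 10 counts in total was 0.869 and 0.874 with saline replicates 1 and 3, and between 0.907 and 0.926 with the morphine libraries. Values without this library are therefore given beside the main results. The neuronal miRNAs miR-124-3p, miR-128-3p, miR-137-3p and miR-9-5p were counted in every library.

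mmu-miR-148a-3p was the member with the widest change. Its level was 2665, 14223 and 2246 CPM in saline replicates 1, 2 and 3 and 90009, 110506 and 121857 CPM in morphine replicates 1, 2 and 3. Every morphine library lay above every saline library, and saline replicate 2 lay between the other saline libraries and the morphine group. The group means were 6378 ± 6798 CPM (SD, n = 3) and 107457 ± 16142 CPM (SD, n = 3), a ratio of 16.8. The log2 fold change of the fit was 4.07 (SE 0.58). Without saline replicate 2 the saline mean was 2455 CPM, the ratio of the means 43.8 and the log2 fold change 5.45 (SE 0.23). In shares of the raw counts, the miRNA made up 0.348%, 1.14% and 0.297% of the counts of the saline libraries and 8.27%, 10.3% and 10.3% of those of the morphine libraries. Its rank by count moved from 51, 18 and 61 in saline replicates 1, 2 and 3 to 3, 1 and 1 in morphine replicates 1, 2 and 3.

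By mean level miR-148a-3p was 28th in the saline group. The neighbours in that order were let-7a-5p above it, at 6382 ± 1557 CPM (SD, n = 3), and miR-411-5p below it, with 6284 ± 5060 CPM (SD, n = 3). It led the morphine group, ahead of miR-9-5p, a miRNA of neurons and neural progenitors, which had 102261 ± 8690 CPM (SD, n = 3). In neither group was the gap to these neighbours wider than the spread between replicates. Among the 213 miRNAs with a mean of at least 100 CPM, 1 had a higher log2 fold change than miR-148a-3p, and among all 1364 miRNAs it was 30th.

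**Figure D1:**
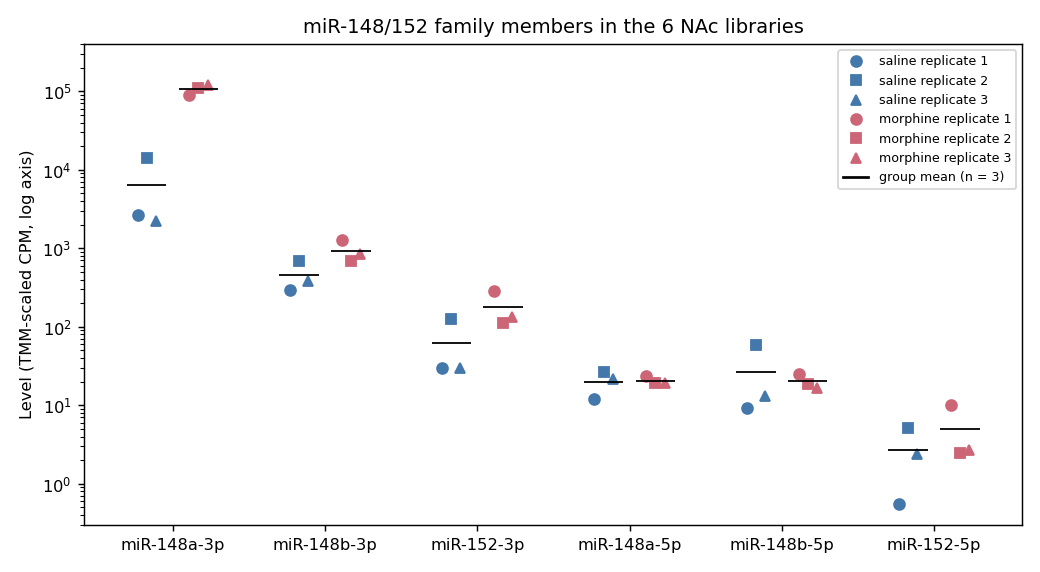
Level of each family member in the 6 libraries, as TMM-scaled CPM on a log axis, with saline in blue, morphine in red, a symbol for each replicate and a bar for each group mean (n = 3). miR-148a-3p lies between 2246 and 14223 CPM in saline and between 90009 and 121857 CPM in morphine, while its passenger strand miR-148a-5p lies between 12.1 and 26.4 CPM in all libraries.

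mmu-miR-148a-5p, the passenger strand of the same hairpin, was low in both groups. It had 66, 176 and 208 counts in saline replicates 1, 2 and 3 and 212, 130 and 123 counts in morphine replicates 1, 2 and 3. After scaling these were 12.1, 26.4 and 21.8 CPM against 23.5, 19.0 and 19.3 CPM. The morphine values lay within the range of the saline values. The means were 20.1 ± 7.31 CPM (SD, n = 3) and 20.6 ± 2.47 CPM (SD, n = 3), and the fitted log2 fold change was 0.04 (SE 0.54), or 0.27 without saline replicate 2. Under the other scalings tried it was between -0.24 and -0.04, so that no direction can be given. The log2 ratio of miR-148a-3p to miR-148a-5p within a library was 4.50 higher in the morphine group, and 5.11 higher without saline replicate 2.

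mmu-miR-148b-3p, the sister guide from Copz1, was at 293, 695 and 380 CPM in saline replicates 1, 2 and 3 and at 1271, 699 and 838 CPM in morphine replicates 1, 2 and 3. The groups did not overlap, but morphine replicate 2 and saline replicate 2 were nearly equal. The means were 456 ± 211 CPM (SD, n = 3) and 936 ± 298 CPM (SD, n = 3), a ratio of 2.05. The log2 fold change was 1.04 (SE 0.48), and 1.47 without saline replicate 2. Among the 15 alternative settings it lay between 0.81 and 1.47. The log2 ratio of miR-148a-3p to miR-148b-3p was 3.37 ± 0.91 (SD, n = 3) in saline and 6.88 ± 0.64 (SD, n = 3) in morphine, a difference of 3.51. The values of this ratio did not overlap between the groups. Because the family was chosen for the rise of miR-148a-3p, such a separation is likely by that choice, and nothing is read from it.

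mmu-miR-152-3p, the guide from Copz2, was at 30.2, 126 and 30.1 CPM in saline replicates 1, 2 and 3 and at 285, 111 and 133 CPM in morphine replicates 1, 2 and 3. Saline replicate 2 lay within the range of the morphine group, while the other saline libraries lay below it. The means were 62.2 ± 55.6 CPM (SD, n = 3) and 176 ± 94.5 CPM (SD, n = 3), and the fitted log2 fold change was 1.50 (SE 0.58). Leaving out saline replicate 2 gave 2.55 and separate groups. Morphine replicate 1 was the highest library for both sister guides, and without it the log2 fold changes were 0.86 for miR-148b-3p and 1.09 for miR-152-3p. The log2 ratio of miR-148a-3p to miR-152-3p was 2.87 higher in the morphine group.

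The passenger strands of the sisters were low. mmu-miR-148b-5p was at 9.15, 58.2 and 13.2 CPM in saline replicates 1, 2 and 3 and at 25.1, 18.8 and 16.6 CPM in morphine replicates 1, 2 and 3. Saline replicate 2 was the highest of all 6 libraries for this strand, and the other saline libraries were the lowest. The log2 fold change was -0.41 (SE 0.63) with all libraries and 0.84 without saline replicate 2, so its direction rests on that library. mmu-miR-152-5p had 3, 34 and 23 counts in saline replicates 1, 2 and 3 and 90, 17 and 17 counts in morphine replicates 1, 2 and 3. Its groups overlapped, and 90 of its counts came from morphine replicate 1. The log2 fold change was 0.90 (SE 0.77), and without morphine replicate 1 it was 0.05.

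In edgeR's quasi-likelihood fit over all miRNAs, 3 of the 6 members met the study's criteria for a differentially expressed miRNA (DEmiRNA) in the higher direction. The criteria require that the log2 fold change is 0.58 or more in size and that p before adjustment does not exceed 0.05. They were met by the guide strands miR-148a-3p, miR-148b-3p and miR-152-3p. Of all miRNAs tested, 9.68% met them in the higher direction, 9.68% in the lower direction and 19.4% in either. No member met them in the lower direction. The number of members lower at an unadjusted p under 0.05 was 0, and by the criteria with DESeq2 it was 0 as well. With adjustment over all miRNAs, 1 member, miR-148a-3p, had an adjusted p under 0.05, against 5.21% of all miRNAs. The groups did not overlap for 2 members, miR-148a-3p and miR-148b-3p, against 22.1% of all miRNAs. Nothing is read from these counts, because the same contrast led to the choice of the family. The median log2 fold change was 0.97 over the members and -0.15 over all miRNAs. miR-148a-3p met the criteria in all 14 alternative settings that gave it a value, miR-152-3p in 13 of 15 and miR-148b-3p in 3 of 15. With saline replicate 2 left out there were 5 such members, all but miR-148a-5p, where 20.9% of all miRNAs met the criteria in the higher direction. Without morphine replicate 1 only miR-148a-3p was left, and the share of all miRNAs was 7.95%.

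**Figure D2:**
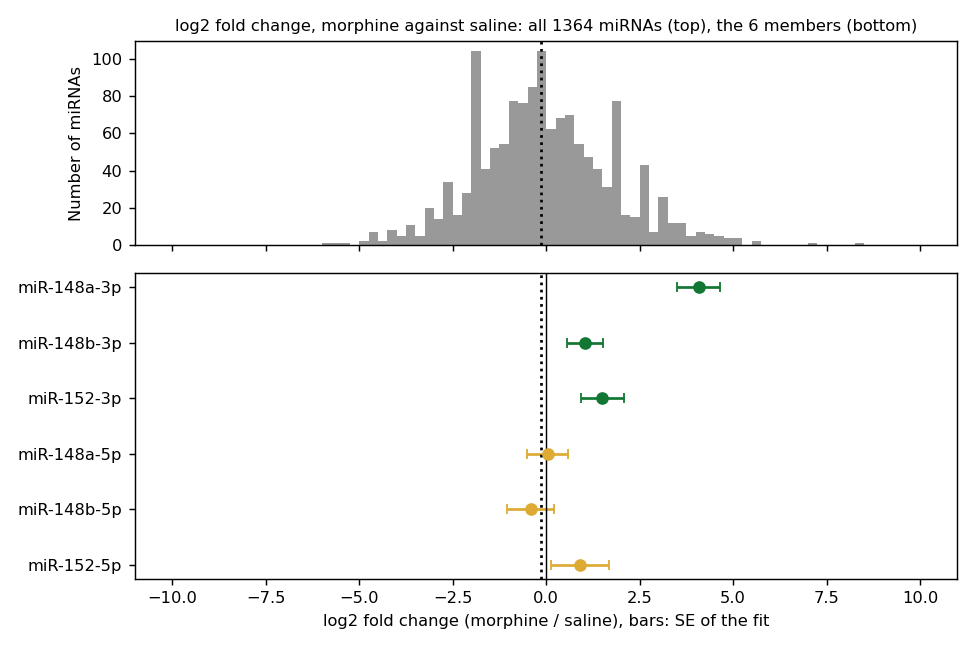
Top, the number of miRNAs at each log2 fold change (morphine over saline, all 1364 miRNAs, dotted line at the median of -0.15). Bottom, the 6 members with the SE of the fit, guide strands in green and passenger strands in yellow: miR-148a-3p at 4.07 lies apart from miR-152-3p at 1.50 and miR-148b-3p at 1.04, and miR-148a-5p is at 0.04.

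Because the 3 guides share a seed, their counts were also added. The sum made up 0.390%, 1.20% and 0.351% of saline libraries 1, 2 and 3, and 8.41%, 10.4% and 10.3% of morphine libraries 1, 2 and 3. The mean was 0.648% ± 0.481 (SD, n = 3) in saline and 9.72% ± 1.14 (SD, n = 3) in morphine. miR-148a-3p supplied 89.4% ± 5.0 (SD, n = 3) of this pool in the saline libraries and 98.9% ± 0.543 (SD, n = 3) in the morphine libraries. The part of miR-148b-3p was 9.58% ± 4.85 (SD, n = 3) and 0.899% ± 0.424 (SD, n = 3), and that of miR-152-3p was 0.995% ± 0.147 (SD, n = 3) and 0.173% ± 0.120 (SD, n = 3). The pool of the 3 passenger strands held 119, 598 and 357 counts in saline and 529, 275 and 246 counts in morphine, and its groups overlapped.

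The counts also give a limit for reads of miR-148a-3p that may have been listed under a sister. In morphine replicate 2, the counts of miR-148b-3p were 0.632% of those of miR-148a-3p and the counts of miR-152-3p were 0.101%. If the share that is misassigned is the same in every library, it can be no larger than this. In the saline libraries the counts of miR-148b-3p were 11.0%, 4.89% and 16.9% of those of miR-148a-3p. The share of the sister counts that may come from miR-148a-3p in the morphine libraries was not tested.

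**Figure D3:**
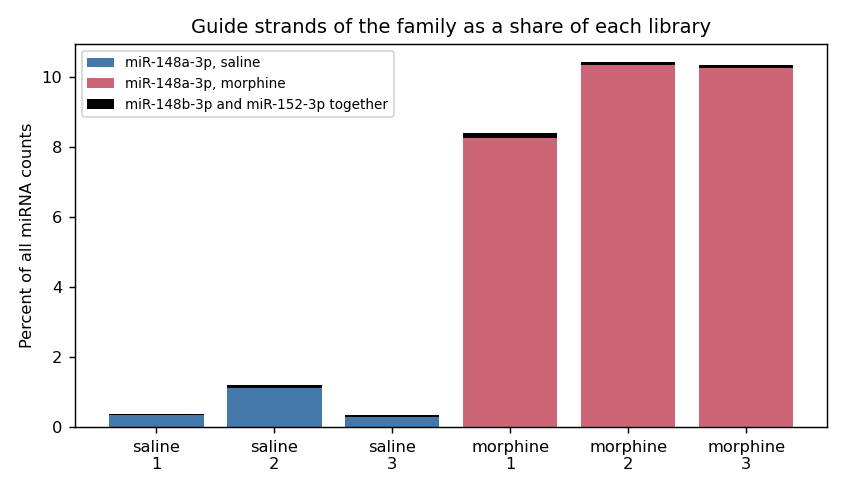
Counts of the 3 guide strands as a percent of all miRNA counts, by library, with miR-148a-3p in blue (saline) or red (morphine) and the sister guides together in black on top. The bars stand at 0.390%, 1.20% and 0.351% in saline and at 8.41%, 10.4% and 10.3% in morphine, and nearly all of each morphine bar is miR-148a-3p.

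The 3p strand was the more abundant strand of each hairpin in every library. For the miR-148b hairpin the count of the 3p strand was between 11.9 and 50.5 times that of the 5p strand, with a mean log2 ratio of 4.99 ± 0.77 (SD, n = 6). For the miR-152 hairpin it was between 12.2 and 48.4 times, with a mean log2 ratio of 4.94 ± 0.77 (SD, n = 6). The ratio was above 1 in 6 of 6 libraries for each (exact two-sided sign-flip permutation test, p = 0.03125 for each, adjusted p = 0.03125 over 3 tests). This p is the smallest that 6 libraries allow. miR-148b-3p was higher than miR-152-3p in 6 of 6 libraries, by 4.46 to 12.6 times (same exact permutation test, p = 0.03125, adjusted p = 0.03125).

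For the miR-148a hairpin, whose 3p strand led to the choice of the family, the strand ratio is a description. The 3p count was 219, 537 and 103 times the 5p count in saline replicates 1, 2 and 3 and 3829, 5779 and 6283 times in morphine replicates 1, 2 and 3. On the log2 scale the means were 7.84 ± 1.20 (SD, n = 3) and 12.34 ± 0.38 (SD, n = 3), which is a 22.6-fold higher ratio in the morphine group. In the miR-148b hairpin the log2 strand ratio was 4.47 ± 0.78 (SD, n = 3) in saline and 5.51 ± 0.25 (SD, n = 3) in morphine, a difference of 1.04 that was 0.59 without saline replicate 2. In the miR-152 hairpin it was 4.60 ± 0.98 (SD, n = 3) and 5.29 ± 0.41 (SD, n = 3), and the groups overlapped.

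**Figure D4:**
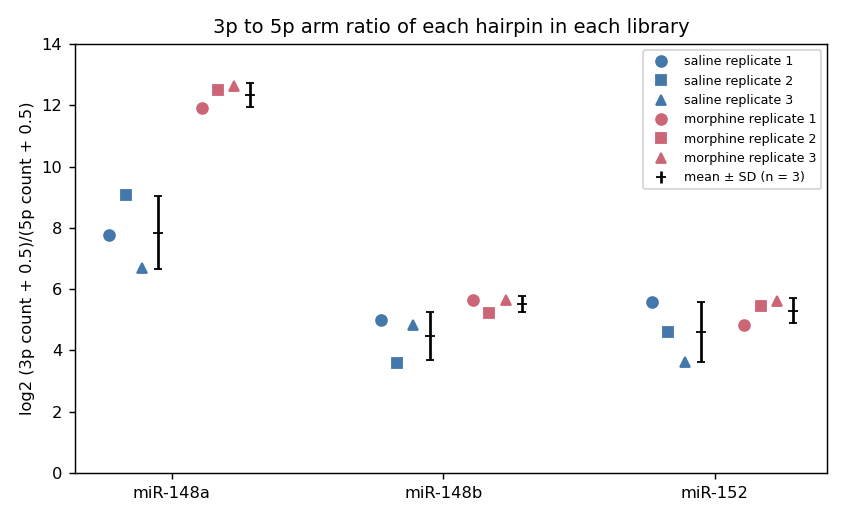
Log2 ratio of the 3p count to the 5p count (0.5 added to each) of the 3 hairpins, by library, with a symbol for each replicate and the mean ± SD (n = 3) of each group. All morphine libraries lie above all saline libraries for miR-148a, by 4.50 between the means, while the group means differ by 1.04 for miR-148b and by 0.69 for miR-152.

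The strand ratio was then set beside that of all 175 hairpins with both strands at a mean of at least 1 CPM and at least 10 counts in total. The median size of the change between the groups was 1.12 on the log2 scale and the 90th percentile was 2.90. Because the family was chosen for the rise of miR-148a-3p, a high rank of its hairpin is likely by that choice, and nothing is read from it. The change of miR-148a, 4.50, ranked 3 in size and the largest in favour of the 3p strand. It kept this rank, at 5.11, without saline replicate 2. The pairs ahead of it in size were miR-9b and miR-126b, which are annotated opposite miR-9 and miR-126a, so that reads of opposite strands could have been mixed in them. miR-148b was 96th and miR-152 114th in size. The strand ratios of the groups did not overlap for miR-148a and miR-148b, and for 44% of all 175 hairpins.

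**Figure D5:**
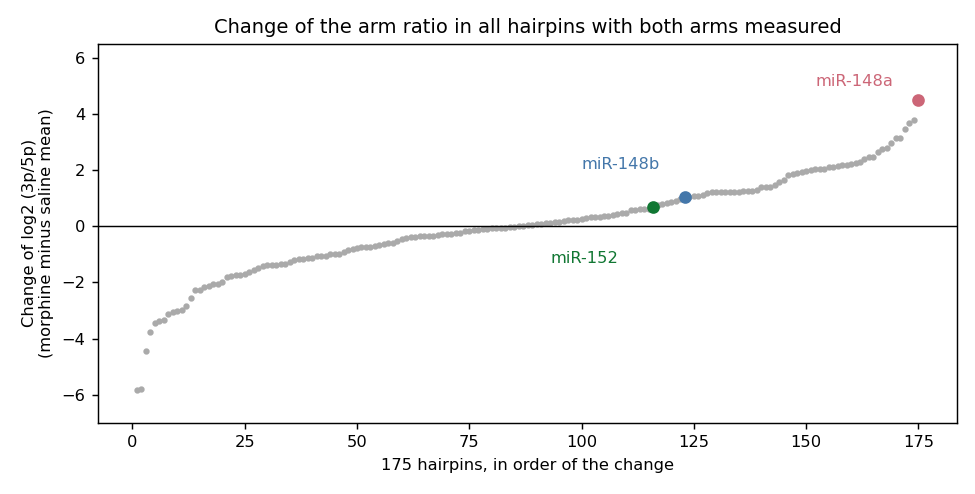
Change of the log2 ratio of 3p to 5p counts (morphine mean minus saline mean) in 175 hairpins, each a point, in order of the change. miR-148a is the last point at 4.50, whereas miR-148b at 1.04 and miR-152 at 0.69 lie above 0 within the bulk of the points.

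The members can be ordered by level. In the saline group the order was miR-148a-3p, miR-148b-3p, miR-152-3p, miR-148b-5p, miR-148a-5p and miR-152-5p. miR-148a-3p and miR-148b-3p did not overlap with the next member, but miR-152-3p overlapped with miR-148b-5p, and miR-148b-5p with miR-148a-5p. In the morphine group the 3 guides had the same order and were each separate from the next, and miR-148a-5p and miR-148b-5p overlapped at means of 20.6 and 20.2 CPM. miR-152-5p was the lowest in both groups, at 2.69 ± 2.29 CPM (SD, n = 3) and 5.04 ± 4.26 CPM (SD, n = 3). A count is a count of whole small RNAs of similar length, so no length correction was applied, but ligation can favour some sequences over others.

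The pattern of miR-148a-3p over the 6 libraries was compared with that of the 404 miRNAs with a mean of at least 10 CPM, by Pearson's r of log2(CPM + 1). This is a description over 6 libraries, in each of which all miRNAs share the same scaling and depth, and the median r was 0.245. The 5 miRNAs outside the family with the highest r were miR-9b-5p (0.997), miR-24-2-5p (0.996), miR-3074-2-3p (0.996), let-7i-5p (0.994) and miR-30f (0.994). As their choice by likeness implies, all 5 were lowest in saline replicates 1 and 3, intermediate in saline replicate 2 and highest in the morphine libraries, like miR-148a-3p. let-7i-5p, of the abundant let-7 family, was at 8621, 18956 and 7933 CPM in saline and at 35109, 35598 and 45927 CPM in morphine. miR-24-2-5p and miR-3074-2-3p come from opposite strands of the same locus and had nearly equal values, so they may hold the same reads. miR-9b is annotated opposite miR-9, so that reads of opposite strands could also have been mixed in miR-9b-5p. Among the members, r with miR-148a-3p was 0.875 for miR-148b-3p and 0.870 for miR-152-3p, against 0.325 for its own passenger strand and 0.333 for miR-148b-5p.

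Other miRNAs known to act on DNA methyltransferase mRNAs were listed for comparison, and 1 of 8 met the criteria in the higher direction and none in the lower, beside 9.68% of all miRNAs in each. The member was miR-126a-3p, an endothelial miRNA, with 2583 ± 1822 CPM (SD, n = 3) in saline, 13860 ± 2673 CPM (SD, n = 3) in morphine, for which the fit gave 2.42 (SE 0.50) on the log2 scale. miR-143-3p, of smooth muscle and mural cells, had a log2 fold change of -0.47 (SE 0.51). The median log2 fold change of this list was -0.11, beside -0.15 over all miRNAs. Without saline replicate 2, 6 of the 8 met the criteria, all higher, beside 20.9% of all miRNAs higher at that setting.

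Of 8 further miRNAs known to act on cholesterol genes, none met the criteria in the higher direction and 2 in the lower, beside 9.68% of all miRNAs in each. The most abundant, miR-128-3p and miR-27b-3p, differed by 0.47 (SE 0.45) and 0.39 (SE 0.49) on the log2 scale, and the list median was -0.07. The lower pair, named after their values were seen, was miR-122-5p, the main miRNA of hepatocytes, and miR-33-5p, which lies in a sterol regulator gene. miR-122-5p was counted 53, 53 and 538 times in saline and 52, 39 and 33 times in morphine, so that its log2 fold change of -2.15 rests on saline replicate 3. It was -0.59 without that library and no longer met the criteria. miR-33-5p had 1, 57 and 3 counts against 2, 1 and 1, so that saline replicate 2 held nearly all of its counts, and without it the log2 fold change was -0.50 and did not meet the criteria. The number of the 8 that met the criteria fell to 0 without morphine replicate 1 and with the replicate block.

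The last pathway list held 5 miR-130 and miR-301 miRNAs, known for a seed that is the family seed shifted by 1 base, and 4 of them are in the count table. In RefSeq, 7 mature miRNAs start with CAGUGCA, of which 3 (miR-130a-3p, miR-130b-3p and miR-301a-3p) are in the count table. The remaining listed entry of the count table, miR-301b-3p, has no mature sequence in the RefSeq table, so its shifted seed was not checked. None of the 4 met the criteria in edgeR's fit, 0 had an unadjusted p under 0.05, and 0 met the criteria with DESeq2. Leaving out saline replicate 2, 2 of them did, in the higher direction, beside 20.9% of all miRNAs, and the list median with all libraries was -0.07. The most abundant were miR-130a-3p, with a log2 fold change of 0.67 (SE 0.67), and miR-130b-3p, with -0.50 (SE 0.73). Their levels were low, with a sum of the 4 between 3.29 and 13.8 CPM in saline and between 7.38 and 11.0 CPM in morphine, so that a change of the size seen in the sister guides rests on few counts.

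Marker miRNAs of cell types that the dissected tissue could hold were summed in each library. The endothelial markers miR-126a-3p and miR-126a-5p, strands of the same hairpin, summed to between 1485 and 5002 CPM in saline and between 10984 and 16264 CPM in morphine. The groups did not overlap for this sum, nor for 22.1% of all miRNAs taken singly. miR-126a-3p made up most of the sum, with a mean of 13860 CPM in morphine against 63.5 CPM for miR-126a-5p. Of these strands, miR-126a-3p met the criteria in the higher direction and miR-126a-5p had a log2 fold change of -0.96 (SE 0.71). The counts of miR-126a-5p were 125, 2115 and 291 in saline and 870, 286 and 333 in morphine. Without saline replicate 2, both endothelial markers met the criteria in the higher direction, as did 20.9% of all miRNAs. The erythroid sum (miR-451a, miR-486a-5p and miR-144-3p) was 208 to 311 CPM in saline and 358 to 571 CPM in morphine. miR-451a was at a log2 fold change of 1.57 (SE 0.51), which met the criteria. miR-486a-5p was at -0.20 (SE 0.54) and miR-144-3p at -1.31 (SE 1.28), and neither met them. miR-144-3p had few counts, 1, 17 and 1 in saline and 8, 0 and 1 in morphine. Without saline replicate 2, 1 of the 3 was higher and 1 lower by the criteria, where 37% of all miRNAs met them in either direction. The leukocyte and microglial sum of 5 markers was lower in morphine, 130 to 160 CPM against 240 to 761 CPM, with 1 of 5, miR-150-5p, lower by the criteria (log2 fold change -2.03). That miRNA made up most of the sum, with a mean of 476 CPM in saline and 117 CPM in morphine, and the log2 fold changes of the others differed in sign, from -0.67 for miR-142a-5p to 0.89 for miR-155-5p. miR-142a-5p had 40, 327 and 94 counts in saline, most of them in saline replicate 2, and 132, 100 and 78 in morphine. The sum of 5 choroid plexus and ependymal markers was 941 to 994 CPM against 1948 to 2768 CPM, with 1 of 5, miR-204-5p, lower by the criteria (log2 fold change -1.50). miR-204-5p likewise made up most of the sum, with a mean of 1896 CPM in saline and 668 CPM in morphine, and the others differed in sign, from -0.95 for miR-211-5p and -0.29 for miR-34c-5p to 0.69 for miR-449a-5p. The part of these shifts in the rise of miR-148a-3p was not tested.

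The remaining marker sums overlapped between the groups. The liver markers, of a tissue rich in miR-148a-3p, summed to between 192 and 871 CPM in saline and between 358 and 506 CPM in morphine. In morphine the mean was 5.55 CPM for the liver-defining miR-122-5p, 245 CPM for miR-192-5p and 164 CPM for miR-194-5p. The liver marker miR-802-5p was at 0 counts in 4 of 6 libraries. Whether liver tissue had a part in the level of miR-148a-3p was not tested. Of the 4 liver markers 1 was higher by the criteria, miR-194-5p (log2 fold change 1.20), and 1 lower, miR-122-5p (-2.15, or -0.59 without saline replicate 3), while miR-192-5p was at -0.56. miR-194-5p no longer met the criteria without saline replicate 1 (1.02), saline replicate 3 (1.05), morphine replicate 1 (1.04) or morphine replicate 3 (1.32), and miR-122-5p did not without morphine replicate 1 (-2.07). Among the neuronal markers miR-124-3p was lower by the criteria (log2 fold change -1.88). The 3 others did not meet them, with miR-9-5p at -0.15 and miR-128-3p at 0.47, and the marker sums were 127164 to 271319 CPM against 176797 to 205120 CPM. Of the oligodendrocyte markers 1 of 3, miR-219a-5p, was lower by the criteria (log2 fold change -3.69), with 15, 426 and 23 counts in saline and 36, 5 and 3 in morphine. Its value rests on saline replicate 2, without which it was -0.50, and it met the criteria neither then nor with DESeq2. miR-219a-2-3p was at 0.01 and miR-338-3p at -0.31, with oligodendrocyte sums of 1820 to 1903 CPM against 1572 to 1963 CPM. The mural cell sum (0 of 2 met the criteria in edgeR's fit, 0 had an unadjusted p under 0.05, and 0 with DESeq2) was 7134 to 18936 CPM against 5709 to 13728 CPM, with log2 fold changes of -0.47 for miR-143-3p and -0.48 for miR-145a-5p. The sum of the 3 pancreatic and endocrine markers, with the same 0 by all of these counts, was 37.7 to 76.3 CPM against 29.4 to 39.3 CPM. Their log2 fold changes differed in sign, with miR-375-3p and miR-217-5p at -0.70 and -0.71 and miR-216a-5p at 0.40. These counts of 0 did not hold without saline replicate 2. Of the 3 pancreatic and endocrine markers 2 were then higher and 1 lower by the criteria, and of the 2 mural markers 1 was lower. At that setting 20.9% of all miRNAs were higher and 16.1% lower. Of the 3 muscle markers 1, miR-206-3p, was lower by the criteria (log2 fold change -2.06), with 391, 108 and 134 counts in saline and 48, 57 and 68 in morphine. Saline replicate 1 carried much of this, since the log2 fold change was -0.80 without it and did not meet the criteria, nor did it without morphine replicate 1 (-1.76). miR-1a-3p was at 0.32, with muscle sums of 72.4 to 970 CPM against 444 to 554 CPM. With saline replicate 2 left out, more members of most marker lists met the criteria, up to 3 higher and 2 lower of the 5 choroid plexus and ependymal markers, where 37% of all miRNAs met them in either direction, against 19.4% with all libraries.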

How the data were processed

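Small RNA libraries of the NAc (3 saline, 3 morphine) were grouped by their sample titles. The authors discarded reads with adapters, with poly-N stretches or of low quality, limited the read length, filtered other RNA classes and repeats with Bowtie and compared the rest with miRBase. The authors deposited raw counts per mature miRNA. The deposited TPM values are these counts scaled to the library total, and were not used in a test. The counting tool, the miRBase release and the genome build are not given in the sources used here.

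The counts were scaled with TMM and tested across all 1364 miRNAs with edgeR 4.0.16 (quasi-likelihood, no covariate) in R 4.3.3, with Benjamini-Hochberg adjustment. SEs came from the fitted model. Strand ratios used counts + 0.5. The fit was tested on simulated data. The number of sample columns left out was 0. Alternatives were 3 other scalings, DESeq2 1.42.0, 2 filters, removal of miR-148a-3p or of abundant miRNAs, the replicate block and leaving out each library. The members and lists were chosen with earlier results of these data known, and the comparison of 175 hairpins after values were seen. Named were all members, the 5 miRNAs most like miR-148a-3p, the 2 most abundant of each list and the neighbours of miR-148a-3p in rank. Other list members that met the criteria were named after their values were seen. Sequences are from RefSeq and positions from RefSeq and GENCODE vM21 (GRCm38).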

Additional observations from a re-analysis of the deposited data

How the results depend on the processing

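The log2 fold change of miR-148a-3p lay between 3.77 and 5.45 when each library was left out in turn, the highest without saline replicate 2, and between 3.99 and 4.03 under the other scalings. The members that met the criteria numbered 1 with a minimum of 10 counts in total, and from 1 (without morphine replicate 1) to 5 (without saline replicate 2) when a library was left out. Over all miRNAs, leaving out a library gave 176 to 492 DEmiRNAs and 0 to 386 at an adjusted p under 0.05, where 0 was without morphine replicate 1. The latter count was 160 with library totals, 153 with upper quartile scaling, 156 with DESeq2, 28 with a minimum of 10 counts and 32 with the replicate block, against 71. With library totals 34.9% of the DEmiRNAs were higher, against 50.0%, with upper quartile scaling 37.7% and with the replicate block 61.5%. Library totals moved the median log2 fold change of all miRNAs by -0.25.

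The replicate numbers did not pair the libraries: deviations of same-numbered libraries correlated at -0.23, -0.28 and 0.14. With the replicate block the log2 fold change of miR-148a-3p was 4.64.

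With a library left out, the exact sign-flip permutation test cannot go below p = 0.0625 over 5 libraries. The mean log2 ratios then were 4.85 to 5.27 for the strands of miR-148b, 4.81 to 5.21 for those of miR-152 and 2.64 to 2.94 for miR-148b-3p over miR-152-3p. The strand ratios and the ratios of miR-148a-3p to other members do not depend on scaling by construction. Counts in the pathway lists ranged from 0 to 6. Depth limits miR-152-5p and the miR-130 and miR-301 miRNAs, which had few counts.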
